A study of Mus musculus with 12 samples.

Results

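The genes described here are 47 genes of the cell cycle and of DNA replication, chosen by name from a list of cyclins, their kinases and inhibitors, replication factors and mitotic proteins. On the array, 46 of them had a probe set that the platform annotation assigns to a single gene symbol, and Ccnb1 was not analysed here. For a gene with several such probe sets, the brightest on average was used. Of the 46, 34 lay above the 40th percentile of all probe sets on at least 3 arrays and were tested, among 8256 tested genes of 12393 measured in the series. The other 12 were too dim for the test and are described separately.

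Cells commit to division in G1, when D cyclins with Cdk4 or Cdk6, and then cyclin E with Cdk2, phosphorylate the retinoblastoma protein Rb1 and free E2F factors to switch on the genes of DNA synthesis. Origins of replication are licensed by loading the MCM helicase, forks copy the DNA behind the sliding clamp Pcna, and Cdk1 with cyclins A and B then drives mitosis. In the adult striatum the projection neurons are postmitotic, while microglia, astrocytes, oligodendrocyte precursors and cells of the neighbouring subventricular zone can still divide.

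The tissue was the striatum of C57Bl/6 mice, whose RNA was read on Affymetrix arrays, 1 array per mouse. Mutants lacked TIF-IA, an RNA polymerase I initiation factor encoded by Rrn3, through a Cre recombinase driven as D1R-Cre, so the deletion was directed to a class of projection neurons and not to the whole tissue. The 4 groups were mutants at 9 weeks, controls at 9 weeks, mutants at 13 weeks and controls at 13 weeks, with 3 mice each, and the labels describe the controls by no more than that word. The study asked which transcripts change around the survival and death of these neurons. The values are log2 signals as deposited, all differences are mutant minus control on the log2 scale with the standard error (SE) of the limma fit, and a gene was called at an adjusted p under 0.05 over all 8256 genes. The number of arrays limits the precision, and in bulk tissue fewer cells of a type and less RNA per cell cannot be told apart.

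Rrn3 itself had log2 signals of 6.9, 6.96 and 6.91 in mutants at 9 weeks, against 8, 7.97 and 8.2 in controls, a difference of -1.13 ± 0.18 (adjusted p = 0.00748). At 13 weeks the mutants had 7.72, 7.58 and 7.18, against 7.96, 7.54 and 8.04 in controls, and the difference of -0.35 ± 0.18 did not pass (adjusted p = 0.128). The labels name medium spiny neurons as the cell type, and all 6 measured markers of striatal projection neurons lay over the percentile in each group, but so did the 12 microglial and 8 astrocyte markers, so the arrays hold RNA of the whole tissue. Control 3 at 13 weeks stood apart, with 20.6% of genes more than 1 log2 unit away from the mean of its group mates. On the other 11 arrays the share was 0.388% to 4.99%, with 4.51% for mutant 3 at 9 weeks. By their sex-linked transcripts all 3 mutants at 13 weeks were female, control 3 was the only female control of that age, and the groups at 9 weeks held 1 female each.

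Promoter sequences are shown for 5 genes because the members fall into replication genes and mitotic genes, and each class is known in mammals for its own promoter element: the E2F site for G1 and S phase genes and the cell cycle genes homology region (CHR) for genes of G2 and mitosis. The windows come from RefSeq on build GRCm38.p6, run 5′ to 3′ on the gene's strand, and hold 250 bases before and 50 after the annotated start. Capitals mark E2F letters (TTTGGCGC, TTTCCCGC, TTTGCCGC or TTTCGCGC) in Mcm3 and Mcm6, E2F and CHR letters in Cdk1, and CHR letters (TTTGAA) in Cdc20 and Top2a, on either strand.
Mcm3, chr1:20820263-20820562, minus strand: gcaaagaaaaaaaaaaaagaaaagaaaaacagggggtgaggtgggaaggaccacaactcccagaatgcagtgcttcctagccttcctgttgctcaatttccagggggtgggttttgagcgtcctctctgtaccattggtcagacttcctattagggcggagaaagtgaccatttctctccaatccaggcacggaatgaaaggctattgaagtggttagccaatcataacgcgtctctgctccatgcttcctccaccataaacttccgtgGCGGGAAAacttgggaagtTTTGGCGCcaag
Mcm6, chr1:128359656-128359955, minus strand: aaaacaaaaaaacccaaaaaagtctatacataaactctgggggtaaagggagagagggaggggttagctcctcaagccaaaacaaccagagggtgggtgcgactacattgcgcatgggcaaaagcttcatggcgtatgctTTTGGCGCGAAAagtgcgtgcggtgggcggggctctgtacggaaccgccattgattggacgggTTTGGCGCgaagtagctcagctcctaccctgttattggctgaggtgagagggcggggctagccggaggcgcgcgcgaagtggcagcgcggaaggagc
Cdk1, chr10:69352863-69353162, minus strand: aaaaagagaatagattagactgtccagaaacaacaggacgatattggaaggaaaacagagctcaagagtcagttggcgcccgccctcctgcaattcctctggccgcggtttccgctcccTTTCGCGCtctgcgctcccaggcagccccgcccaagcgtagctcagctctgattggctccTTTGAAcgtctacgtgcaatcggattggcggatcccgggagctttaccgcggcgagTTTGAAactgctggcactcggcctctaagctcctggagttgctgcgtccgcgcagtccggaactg
Cdc20, chr4:118437294-118437593, minus strand: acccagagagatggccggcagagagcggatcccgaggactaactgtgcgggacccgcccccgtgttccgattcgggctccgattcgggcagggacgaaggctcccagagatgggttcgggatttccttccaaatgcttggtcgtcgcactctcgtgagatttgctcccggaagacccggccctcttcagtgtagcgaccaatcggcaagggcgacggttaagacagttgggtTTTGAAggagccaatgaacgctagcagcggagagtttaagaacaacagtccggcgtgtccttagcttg
Top2a, chr11:99024140-99024439, minus strand: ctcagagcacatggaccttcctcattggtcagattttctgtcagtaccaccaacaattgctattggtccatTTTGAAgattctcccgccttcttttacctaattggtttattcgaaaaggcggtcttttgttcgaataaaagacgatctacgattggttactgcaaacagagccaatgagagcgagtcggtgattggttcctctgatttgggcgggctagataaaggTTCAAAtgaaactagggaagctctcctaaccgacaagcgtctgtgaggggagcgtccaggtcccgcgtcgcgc

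Windows were found for 38 of the 46 measured genes. The E2F letters stood in 5 of the 13 genes with DNA replication roles (35.7% of their 14 windows) and in 1 of the 17 with S and M phase, spindle or chromosome roles (5.56% of 18 windows), against 2.26% of all 32851 mouse promoter windows. The CHR letters ran the other way, in 2 replication genes (14.3% of windows) and 12 of the mitotic ones (72.2% of windows), against 17.9% of all windows. CCAAT, an element known for pairing with the CHR, was in 71.4% and 83.3% of the windows of these classes, against 37.4% of all windows. Matches of different motifs overlapped only in Mcm7, where an E2F match shares a base with CCAAT. In Mcm5 and in Mcm6 a pair of E2F matches on opposite strands shares bases. A match of letters is a description of the sequence, not a bound site.

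**Figure D1:**
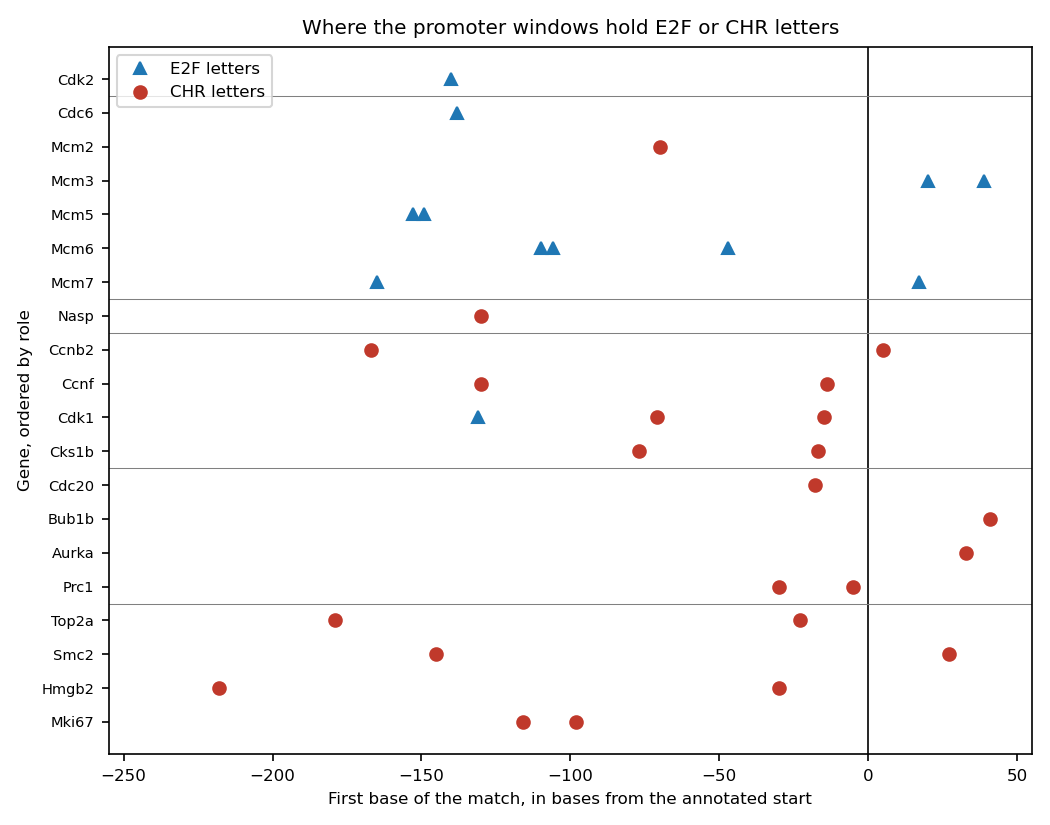
Position of E2F letters (triangles) and CHR letters (circles) in the promoter windows of the members that hold either, in bases from the annotated start, with genes in rows ordered by role and lines between roles. E2F letters stand mostly in the Mcm genes and CHR letters in genes from Ccnb2 down to Mki67 besides Mcm2 and Nasp, with Cdk1 the only gene shown that holds both.

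At 13 weeks most of the tested cell cycle genes were higher in the mutant striatum, from the G1 cyclins Ccnd1 and Ccnd3 through the MCM helicase and ribonucleotide reductase to Cdk1, Top2a and the Ki67 gene. Of the 34 tested members, 23 were called higher and 2 lower at 13 weeks, where 23.4% of all tested genes were called higher and 21.9% lower (45.3% in either direction). Their median difference was 1.22, against 0.0033 over all tested genes, and 30 of the 34 differences were above 0. At 9 weeks 3 members, Nasp, Cdc20 and Hmgb2, were called higher and 0 lower by limma. Of all genes 2.02% were called higher and 2.98% lower. At an unadjusted p under 0.05 it was 7 members higher and 0 lower, against 750 higher and 1017 lower of all 8256 genes. The median at 9 weeks was 0.25, against -0.02 over all genes, with 28 of 34 above 0. Of the 34, 32 passed the filter on arrays other than those of the mutants at 13 weeks, and the exceptions were Birc5 and Prc1. Among those 32, 22 were called higher and 2 lower at 13 weeks. With a term for sex in the fit, 27 of the 34 were called at that age. The share of all genes called in that fit is not given here. All 3 mutants of that age were female, and the only female control was control 3, which stood apart. That fit can therefore separate sex from genotype only in part.

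**Figure D2:**
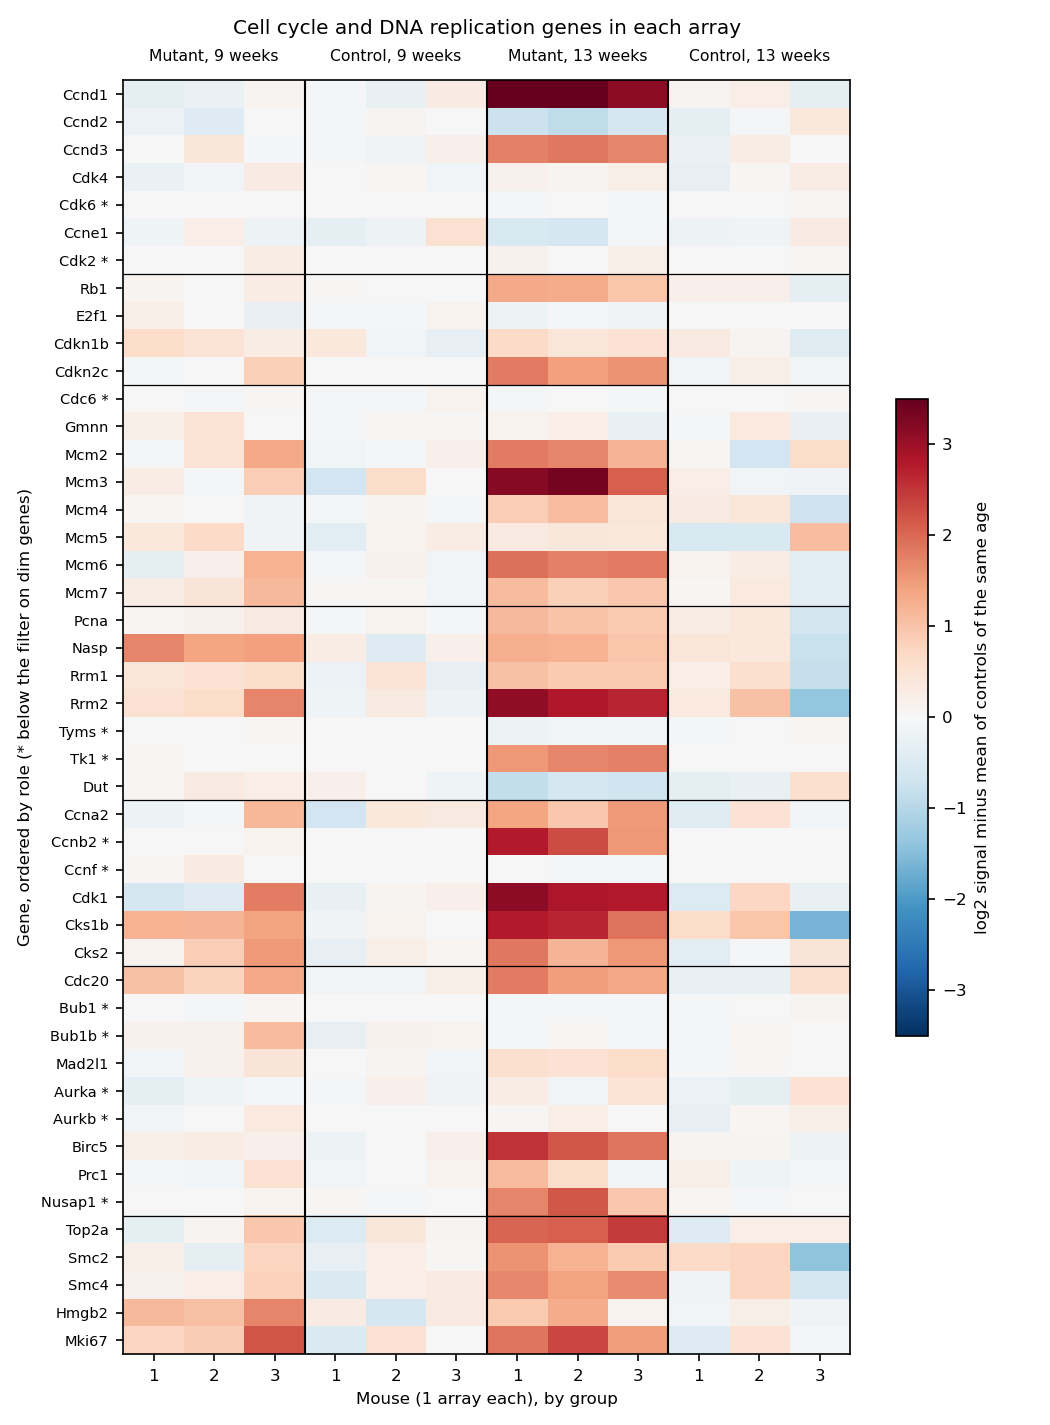
Log2 signal of the 46 measured members on each of the 12 arrays minus the mean of the controls of the same age (colour scale, red higher), with genes in rows ordered by role and an asterisk on the 12 below the filter. The mutants at 13 weeks are red for most genes, Ccnd2 and Dut are blue there, and mutant 3 at 9 weeks is redder than its group mates.

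The genotype difference itself grew between the ages for 9 members and shrank for 0 by limma. Of all tested genes 12.1% were called with a positive change, 6.38% with a negative one and 18.4% in all. At an unadjusted p under 0.05 the member counts were 12 and 1, against 1481 and 1167 of all 8256 genes. The 9 members called were Ccnd1, Ccnd3, Rb1, Cdkn2c, Mcm3, Mcm6, Cdk1, Birc5 and Top2a. Of these Birc5 passed the filter only through the mutants of 13 weeks. With control 3 at 13 weeks and mutant 3 at 9 weeks both left out, the count was 16. The share of all genes called without those 2 arrays is not given here. The calls for Mcm6 and Cdk1 did not hold in every fit that left out a single array, with adjusted p up to 0.0893 and 0.0703, while the other 7 did. Within mutants, 10 members were higher and 1 lower at 13 than at 9 weeks, where 16.1% of all genes were called higher, 16.6% lower and 32.7% in either direction, and the count in all became 20 without those 2 arrays. The 10 were Cdc20 and the 9 just named, and the fall was that of Dut. Within controls 0 of the 34 differed between the ages by limma, where 0.145% of all genes were called. At an unadjusted p under 0.05 it was 4 of the 34, against 1431 of all 8256 genes.

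The D cyclins, which sense growth signals and start the cycle, went in different directions. Ccnd1 had log2 signals of 9.71, 9.75 and 9.27 in mutants at 13 weeks, against 6.25, 6.37 and 5.83 in controls, and at 9 weeks 6.22, 6.33 and 6.65 in mutants, against 6.53, 6.31 and 6.84 in controls. The mutants of 13 weeks lay far above the other 9 arrays, which overlapped. The difference at 13 weeks was 3.43 ± 0.21, or 10.8-fold (adjusted p = 1.76e-07), against -0.16 ± 0.21 at 9 weeks, and the change of 3.59 ± 0.30 passed (adjusted p = 5.95e-06). Ccnd3 had 8.35, 8.42 and 8.28 in mutants at 13 weeks, against 6.33, 6.82 and 6.57 in controls, 3.43-fold higher (1.78 ± 0.18, adjusted p = 9.55e-06). Its signals at 9 weeks, 6.51, 6.91 and 6.44 in mutants and 6.45, 6.38 and 6.7 in controls, overlapped. Ccnd2 fell at 13 weeks: it had 9.44, 9.28 and 9.6 in mutants, against 9.86, 10.13 and 10.55 in controls, and 9.89, 9.66 and 10.11 in mutants at 9 weeks, against 10.03, 10.21 and 10.08 in controls. The groups at 13 weeks did not overlap, and the difference was -0.74 ± 0.19 (adjusted p = 0.00787). All 6 other Ccnd2 probe sets over the filter were also lower in mutants at that age, but not all were called (adjusted p up to 0.287).

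The partners of these cyclins were not called. Cdk4, the kinase that D cyclins activate, had 8.92, 8.86 and 8.99 in mutants at 13 weeks, against 8.48, 8.81 and 9.04 in controls, with a difference of 0.15 ± 0.18 (adjusted p = 0.523). At 9 weeks it had 8.7, 8.86 and 9.22 in mutants, against 8.95, 9.02 and 8.86 in controls, and the groups overlapped at both ages. Cdk6, the other D cyclin kinase, read 1.88, 1.9 and 1.85 in mutants at 13 weeks, against 1.89, 1.9 and 1.94 in controls, and 1.92, 1.9 and 1.9 in mutants at 9 weeks, against 1.9 in each control. All of these lay under the filter, as did Cdk2. Ccne1, cyclin E, had 4.41, 4.35 and 4.88 in mutants at 13 weeks, against 4.78, 4.82 and 5.24 in controls (-0.40 ± 0.25, adjusted p = 0.208). At 9 weeks it had 4.82, 5.19 and 4.79 in mutants, against 4.61, 4.77 and 5.5 in controls, and the groups overlapped at both ages.

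Of the brakes on G1, Rb1 and the Cdk4 and Cdk6 inhibitor Cdkn2c rose and Cdkn1b did not pass, nor did the E2F factor E2f1. Rb1 had 9.38, 9.36 and 9.03 in mutants at 13 weeks, against 8.24, 8.23 and 7.72 in controls, 2.29-fold higher (1.19 ± 0.17, adjusted p = 0.000159). At 9 weeks it had 8.22, 8.14 and 8.37 in mutants and 8.15, 8.11 and 8.09 in controls, so only the mutants of 13 weeks stood clear. Cdkn2c had 5.67, 5.29 and 5.44 in mutants at 13 weeks, against 3.76, 4.05 and 3.76 in controls, 3.05-fold higher (1.61 ± 0.22, adjusted p = 0.000123). Its 9-week signals were 3.68, 3.76 and 4.59 in mutants and 3.73, 3.76 and 3.78 in controls, where mutant 3 alone was above the controls. Cdkn1b, the p27 inhibitor of cyclin E and Cdk2, had 8.93, 8.68 and 8.77 in mutants at 13 weeks, against 8.57, 8.35 and 7.84 in controls. Those groups did not overlap, but the difference of 0.54 ± 0.22 missed the threshold (adjusted p = 0.0612), and a dimmer Cdkn1b probe set differed by -0.19. Without control 1 of that age Cdkn1b was called, at 0.70 (adjusted p = 0.0278), and without control 3 the difference was 0.33. At 9 weeks Cdkn1b had 8.64, 8.48 and 8.27 in mutants, against 8.36, 7.91 and 7.72 in controls (0.47 ± 0.22, adjusted p = 0.242). E2f1, the activating factor that Rb1 binds, had 3.36, 3.49 and 3.43 in mutants at 13 weeks, against 3.52, 3.54 and 3.57 in controls (-0.12 ± 0.15, adjusted p = 0.545). Its 9-week signals of 3.86, 3.63 and 3.36 in mutants overlapped the 3.58, 3.62 and 3.77 of controls. At 13 weeks E2f1 was over the filter's percentile in 0 mutants and 1 control, at the low end of the signal scale.

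**Figure D3:**
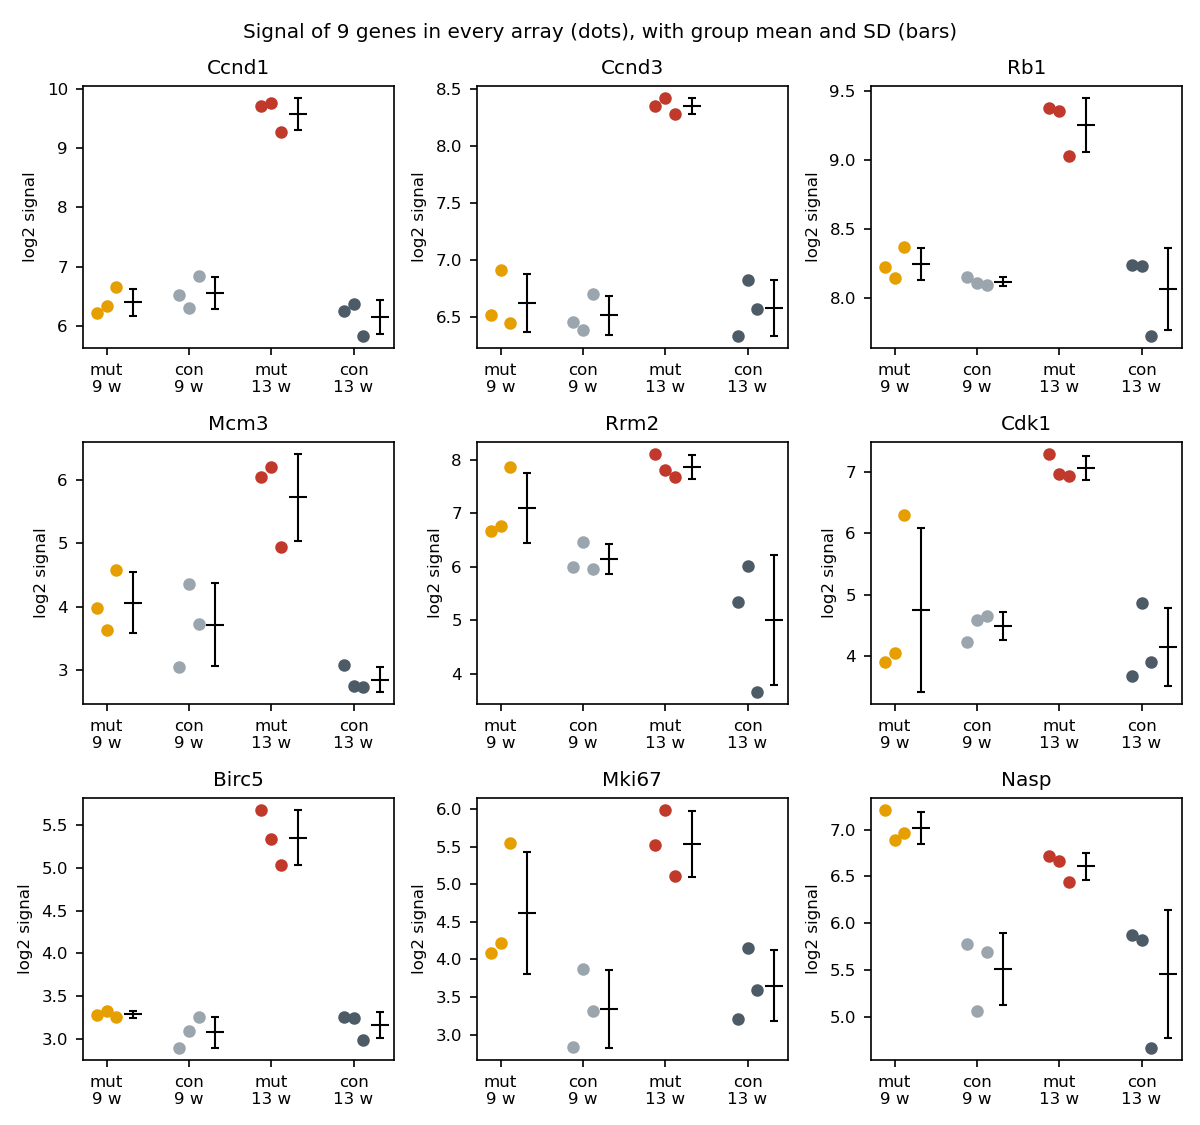
Log2 signal of 9 members on every array (dots, 3 mice per group), with the group mean and SD as bars, for mutants and controls at 9 and 13 weeks. Ccnd1, Ccnd3, Rb1 and Birc5 are high in the mutants of 13 weeks alone, while Nasp is high in mutants at both ages and Cdk1, Rrm2 and Mki67 have a high mutant 3 at 9 weeks.

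Origins are licensed by loading the hexameric MCM helicase, and 5 of the 7 tested members of this role were called higher at 13 weeks and 0 lower, with a median of 0.96. Over all tested genes 23.4% were called higher and 21.9% lower. Mcm3 had 6.04, 6.2 and 4.94 in mutants, against 3.07, 2.74 and 2.72 in controls, 7.38-fold higher (2.88 ± 0.38, adjusted p = 9.46e-05). Its groups overlapped at 9 weeks, with 3.97, 3.63 and 4.58 in mutants and 3.05, 4.36 and 3.72 in controls. The 13-week controls lay under the filter, so the fold depends on the low end of the signal scale. Mcm6 had 7.76, 7.58 and 7.65 in mutants at 13 weeks, against 5.96, 6.08 and 5.45 in controls, 3.56-fold higher (1.83 ± 0.32, adjusted p = 0.000609). At 9 weeks Mcm6 had 5.9, 6.42 and 7.45 in mutants, against 6.18, 6.39 and 6.16 in controls, and only mutant 3 was clearly above them. Mcm2, Mcm4 and Mcm7 differed by 1.57 ± 0.36, 0.79 ± 0.27 and 0.96 ± 0.24 at 13 weeks (adjusted p = 0.00412, 0.0312 and 0.00629). The other Mcm7 probe sets over the filter differed by 0.42, 0.74 and 0.93 and did not pass (adjusted p = 0.265, 0.112 and 0.0503). Without control 3, the difference of Mcm4 was 0.43 and it was no longer called (adjusted p = 0.0612). Without mutant 1 or mutant 2 of that age the call was lost too, as it was with no filter or with median-centred arrays. Mcm5 did not pass, at 0.36 ± 0.38 (adjusted p = 0.456), but without control 3, at 6.16 against 4.56 and 4.54 for the other controls, it was called at 0.90 (adjusted p = 0.00799). Not called either was Gmnn, geminin, which blocks relicensing, at 0.03 (adjusted p = 0.906).

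At the fork and in the supply of histones and nucleotides, 4 of 5 tested members rose and 1 fell at 13 weeks. Of all tested genes, 23.4% were called higher and 21.9% lower at that age. Pcna, the sliding clamp, had 12.02, 11.87 and 11.8 in mutants at 13 weeks, against 11.14, 11.25 and 10.23 in controls, 2.03-fold higher (1.02 ± 0.23, adjusted p = 0.00371). At 9 weeks Pcna had 11.19, 11.27 and 11.45 in mutants, against 11.06, 11.26 and 11.05 in controls, and these overlapped. Rrm2, the regulated subunit of ribonucleotide reductase, which makes deoxyribonucleotides, had 8.11, 7.81 and 7.67 in mutants at 13 weeks, against 5.34, 6.02 and 3.66 in controls. That is 7.24-fold higher (2.86 ± 0.50, adjusted p = 0.000648), with control 3 the lowest array. Its 9-week mutants at 6.67, 6.77 and 7.86 also lay above the controls at 6, 6.46 and 5.96, but the difference of 0.96 ± 0.50 did not pass (adjusted p = 0.293). Rrm1, the large subunit, rose by 0.96 ± 0.30 at 13 weeks (adjusted p = 0.0234), and by 0.56 without control 3 (adjusted p = 0.0497). It was not called without mutant 1 or without mutant 2 of that age.

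Nasp and Dut departed from this pattern. Nasp, a chaperone that stores histones, had 7.21, 6.89 and 6.96 in mutants at 9 weeks, against 5.78, 5.07 and 5.69 in controls (1.51 ± 0.30, adjusted p = 0.0214). At 13 weeks it had 6.72, 6.66 and 6.44 in mutants, against 5.88, 5.82 and 4.67 in controls (1.15 ± 0.30, adjusted p = 0.00805, and 0.76 without control 3). Mutants lay above controls at both ages, and the change between ages of -0.36 did not pass. The 9-week call did not survive leaving out any of the 3 controls, or mutant 1 or 2, of that age (adjusted p up to 0.0758). Dut, the enzyme that removes dUTP before it enters DNA, fell at 13 weeks. It had 6.62, 6.88 and 6.8 in mutants, against 7.16, 7.24 and 8.06 in controls (-0.72 ± 0.22, adjusted p = 0.0192), and -0.43 without control 3. The call was lost without mutant 1 of that age, while another Dut probe set differed by -2.26. At 9 weeks Dut had 7.24, 7.5 and 7.42 in mutants and 7.36, 7.17 and 7.03 in controls, which overlapped. That other Dut probe set was called lower at 9 weeks as well, at -0.89 (adjusted p = 0.0219).

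Among the S and M phase regulators all 4 tested members rose at 13 weeks, with a median of 1.99. The share called higher over all tested genes was 23.4%. Cdk1, the kinase of mitotic entry, had 7.29, 6.97 and 6.93 in mutants at 13 weeks, against 3.68, 4.87 and 3.9 in controls, 7.53-fold higher (2.91 ± 0.52, adjusted p = 0.000819). At 9 weeks it had 3.91, 4.05 and 6.29 in mutants, against 4.23, 4.59 and 4.66 in controls. Mutant 3 there stood nearer to the 13-week mutants than to its group mates, which lay below all 3 controls. Cks1b, a small subunit that binds Cdks, had 9.2, 9.09 and 8.32 in mutants at 13 weeks, against 7.07, 7.38 and 4.8 in controls (2.45 ± 0.52, adjusted p = 0.00238). Its 9-week mutants at 8.35, 8.32 and 8.52 were likewise above the controls at 6.99, 7.25 and 7.12, but the difference of 1.28 ± 0.52 did not pass (adjusted p = 0.183). The other Cks1b probe set over the filter was called at 9 weeks, at 1.30 (adjusted p = 0.0274), and so was the chosen set without control 3 of 13 weeks, whose spread enters the same fit (adjusted p = 0.00441). Its relative Cks2 rose by 1.53 ± 0.33 (adjusted p = 0.00255). Ccna2, cyclin A, rose by 1.27 ± 0.38 at 13 weeks (adjusted p = 0.0179), a call lost without control 1, mutant 1 or mutant 3 of that age (adjusted p up to 0.0599).

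The genes of spindle control and mitotic exit rose in 3 of 4 tested cases at 13 weeks. Over all tested genes 23.4% were called higher. Birc5 and Prc1 passed the filter only with the mutants of 13 weeks, and the remaining Cdc20 and Mad2l1 were both called. Birc5, survivin, a subunit of the chromosomal passenger complex, had 5.68, 5.34 and 5.04 in mutants at 13 weeks, against 3.25, 3.24 and 2.98 in controls. At 9 weeks it had 3.28, 3.33 and 3.25 in mutants and 2.89, 3.09 and 3.25 in controls. Only the 13-week mutants passed the filter, so the 4.58-fold difference (2.20 ± 0.18, adjusted p = 1.74e-06) is set against controls at the low end of the scale. Cdc20, the activator of the anaphase-promoting complex, had 8.12, 7.76 and 7.64 in mutants at 13 weeks, against 6.01, 6.03 and 6.86 in controls (1.54 ± 0.24, adjusted p = 0.000323). At 9 weeks Cdc20 had 6.92, 6.68 and 7.22 in mutants, against 5.79, 5.79 and 6.11 in controls (1.04 ± 0.24, adjusted p = 0.035). Mutants were above controls at both ages, although the 9-week call was lost whichever array of that age was left out, with adjusted p up to 0.122. The other Cdc20 probe set over the filter was called at 9 weeks, at 2.04 (adjusted p = 0.021). The spindle checkpoint gene Mad2l1 rose by 0.57 ± 0.16 (adjusted p = 0.0113), a call lost when arrays were centred on their medians. Prc1, which bundles the central spindle, did not pass at 0.56 ± 0.27 (adjusted p = 0.112), although its other probe set differed by 1.43 (adjusted p = 0.00317). Without mutant 3 of 13 weeks Prc1 was called at 0.88 (adjusted p = 0.00924), and without mutant 1 the difference was 0.28.

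Of the genes of chromosome structure and proliferation, 3 of 5 were called higher at 13 weeks, with a median of 1.58. The share called higher over all tested genes was 23.4%. Top2a, the topoisomerase that untangles replicated DNA, had 5.96, 6 and 6.37 in mutants at 13 weeks, against 3.46, 4.14 and 4.16 in controls, 4.56-fold higher (2.19 ± 0.33, adjusted p = 0.000232). At 9 weeks it had 4.32, 4.75 and 5.62 in mutants and 4.19, 5.06 and 4.75 in controls, which overlapped. Mki67, the gene of the Ki67 antigen used to mark dividing cells, had 5.52, 5.99 and 5.11 in mutants at 13 weeks, against 3.21, 4.15 and 3.59 in controls, 3.71-fold higher (1.89 ± 0.41, adjusted p = 0.00269). Its 9-week mutants at 4.09, 4.22 and 5.55 were also above the controls at 2.83, 3.87 and 3.32, where the difference of 1.28 ± 0.41 did not pass (adjusted p = 0.0929). Only 1 of 3 Mki67 controls at each age lay over the filter's percentile, so these sizes depend on the low end of the signal scale. Smc4, a condensin subunit, had 6.89, 6.61 and 6.86 in mutants at 13 weeks, against 5.08, 5.95 and 4.59 in controls (1.58 ± 0.33, adjusted p = 0.00213). Its 9-week signals were 6.05, 6.13 and 6.71 in mutants and 5.39, 6.13 and 6.2 in controls. Its partner Smc2 missed the threshold at 1.24 ± 0.49 (adjusted p = 0.0553), with control 3 at 4 against 6.07 and 6.15 for the other controls. Without control 3 the difference was 0.54 (adjusted p = 0.149), and without control 1 or control 2 Smc2 was called, at 1.57 and 1.61. Hmgb2, a chromatin protein abundant in dividing cells, had 7.38, 7.28 and 7.95 in mutants at 9 weeks, against 6.54, 5.65 and 6.56 in controls (1.29 ± 0.32, adjusted p = 0.0449). At 13 weeks it had 8.34, 8.74 and 7.55 in mutants, against 7.35, 7.64 and 7.31 in controls (0.78 ± 0.32, adjusted p = 0.0691), and the change between ages did not pass. The 9-week call of Hmgb2 was lost whichever array of that age was left out, with adjusted p up to 0.143. Its other probe set over the filter was called at 13 weeks (1.51, adjusted p = 0.00451) and not at 9 weeks (1.11, adjusted p = 0.0936), and the chosen set was called at 13 weeks without mutant 3 of that age, at 1.11, or without control 2 of 9 weeks.

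**Figure D4:**
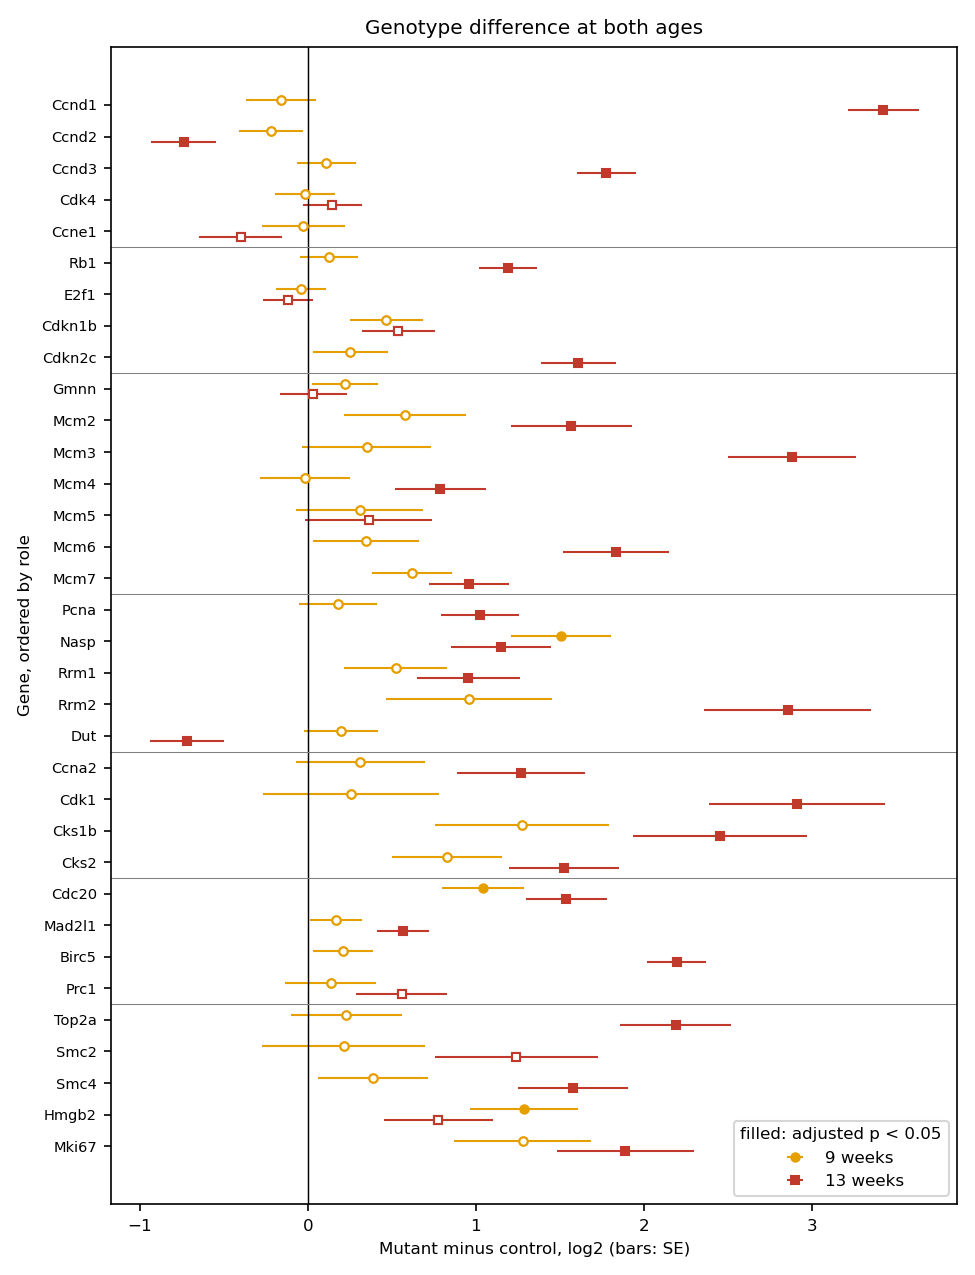
Difference of mutant minus control in log2 signal with its SE for the 34 tested members at 9 weeks (circles) and 13 weeks (squares), ordered by role, filled where the adjusted p is under 0.05. At 13 weeks 25 of the squares are filled, 23 of them right of 0, whereas 3 circles are filled at 9 weeks, those of Nasp, Cdc20 and Hmgb2.

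The 12 measured members below the filter were divided. Tk1, the salvage thymidine kinase of S phase, read 3.54, 3.71 and 3.78 in mutants at 13 weeks, against 1.99, 2.01 and 2.04 in controls, and between 1.98 and 2.03 at 9 weeks. Ccnb2, a B-type cyclin, read 4.82, 4.33 and 3.54 in mutants at 13 weeks, against 2.04, 2.05 and 2.01 in controls, and Nusap1, a spindle microtubule protein, 4.33, 4.79 and 3.55 in mutants, against 2.67, 2.55 and 2.62 in controls. In all 3 genes the mutants of 13 weeks were clear of every other array. With no filter these 3 rose (adjusted p = 1.03e-07, 0.000195 and 0.000984) and Tyms, thymidylate synthase, was called lower by 0.12, a size near the floor of the signal. Of all 46 measured members 25 were then called higher and 3 lower, where 16.0% of 12393 genes were called higher. The other 8 dim genes, Cdk6, Cdk2, Cdc6, Ccnf, Bub1, Bub1b, Aurka and Aurkb, differed by -0.05 to 0.21 at 13 weeks and did not pass. Another Bub1 probe set, also under the filter, differed by 0.82 (adjusted p = 0.0109), and another Nusap1 probe set by -0.05. A signal this low does not show whether those genes were expressed.

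Other genes of the same machinery were taken from lists of replication and cell cycle genes. Of 48 tested, 18 were called higher and 3 lower at 13 weeks, with a median of 0.44, where 23.4% of all genes were called higher and 21.9% lower. At 9 weeks 5 were called higher and 0 lower by limma. Of all genes 2.02% were called higher and 2.98% lower. At an unadjusted p under 0.05 the counts were 12 and 5, against 750 and 1017 of all 8256 genes. Cdt1, Dbf4, Cdca3 and Rbl1 had passed the filter only through the mutants of 13 weeks, with all controls under it, so they had to differ there and the sizes given for them are set against the low end of the scale. Among the other 44, 14 were called higher and 3 lower at 13 weeks and 4 higher at 9 weeks. Over members and all these genes together, 8 of 82 were called higher and 0 lower at 9 weeks, and 41 higher and 5 lower at 13 weeks. The origin recognition and loading list had 6 of 10 higher at 13 weeks, and 4 of 8 without Cdt1 and Dbf4. Cdt1, which loads the MCM helicase, had 6.16, 6.2 and 5.52 in mutants, against 2.35, 2.5 and 2.26 in controls (3.59 ± 0.23, adjusted p = 2.22e-07). Dbf4, Orc2 and Gins1 rose by 1.64, 0.86 and 1.04.

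The list of polymerases, clamp loaders and ligase had 4 of 15 higher and 1 lower at 13 weeks, near the share over all genes, and it held 4 of the 5 calls at 9 weeks. Rfc4, a clamp loader subunit, had 7.95, 7.99 and 7.9 in mutants at 9 weeks, against 6.44, 6.53 and 6.58 in controls (1.43 ± 0.19, adjusted p = 0.00377), and the call held whichever single array was left out. At 13 weeks Rfc4 had 8.06, 8.26 and 7.83 in mutants, against 6.87, 7.12 and 6.35 in controls (1.27 ± 0.19, adjusted p = 0.000232). Its change between ages of -0.16 did not pass (adjusted p = 0.72), and mutants lay above controls at both ages. The others called at 9 weeks, singled out after their values were seen, were the primase subunits Prim1 (0.94 ± 0.16, adjusted p = 0.012) and Prim2 (1.23 ± 0.25, adjusted p = 0.0219), Rfc3 (0.97 ± 0.24, adjusted p = 0.0429) and Cdt1 (0.90 ± 0.23, adjusted p = 0.046), the last with most of its 9-week arrays under the filter. Each of these 4 lost its call without at least 1 array of 9 weeks, with adjusted p up to 0.16. At 13 weeks Prim1 and Rfc3 rose by 0.68 and 0.90, and Rfc5 fell by 0.97.

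The mitosis list had 5 of 11 higher at 13 weeks, among them Cdca3, Ube2c, Cenpa and Tpx2, by 1.71, 2.49, 1.91 and 1.80, and 4 of 10 without Cdca3. Of 10 tested genes from the list of other cyclins and the E2F family, 2 rose and 2 fell, close to the shares over all genes. Those were Rbl1, the Rb1 relative p107 (2.49 ± 0.14, adjusted p = 8.62e-08), and Ccng1, a p53 target (2.14 ± 0.28, adjusted p = 8.52e-05), against falls of Ccng2, at -0.88, and E2f6, at -0.51. Without control 3 at 13 weeks Ccng2 differed by -1.39, the call was lost whichever other array was left out, and among female mice alone the difference was 0.14. The call of E2f6 was lost without mutant 2 of 13 weeks.

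Cdkn1a, the p21 inhibitor of cyclin-dependent kinases and a p53 target, ran in opposite directions at the ages. It had 6.26, 6.05 and 5.94 in mutants at 9 weeks, against 6.7, 7.43 and 7.4 in controls (-1.09 ± 0.32, adjusted p = 0.0742). At 13 weeks it had 9.88, 9.48 and 8.54 in mutants, against 6.49, 7.13 and 6.5 in controls (2.59 ± 0.32, adjusted p = 5.93e-05). Mutants lay under all controls at 9 weeks and over all of them at 13 weeks, and the change of 3.69 ± 0.46 passed (adjusted p = 0.000152). The 9-week difference was called without control 3 or mutant 3 of 13 weeks (adjusted p = 0.0432 and 0.032). Cyclin D1 and this inhibitor were both high in the same 3 mice at 13 weeks.

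Markers of some cell types that can divide were higher at 13 weeks, but not of all. Of 5 tested neuroblast and neural progenitor markers 1 was called higher, with a median difference of 0.24. All 12 microglial markers were called higher, and their summed linear signal was 41851 to 54085 in mutants, against 7196 to 9994 in controls. Of 8 astrocyte markers 7 were higher, with sums of 48368 to 50066 in mutants, against 16915 to 21374 in controls. Of 6 oligodendrocyte precursor markers 3 were higher (5286 to 6439 in mutants, against 3722 to 4840 in controls), as were 2 of 3 tested endothelial ones (268.6 to 356.4 in mutants, against 136.2 to 193 in controls). Over all tested genes 23.4% were called higher and 21.9% lower at that age. All 6 projection neuron markers were lower, with sums of 8904 to 15715 in mutants, against 37797 to 48320 in controls. The 6 measured lymphocyte markers lay below the percentile on all arrays of every group, with sums of 31.6 to 33 in mutants and 32.6 to 34.1 in controls at 13 weeks. The part of each cell type in the rise of the cell cycle genes was not tested.

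At 9 weeks mutant 3 stood out among the members, having the highest signal of the 3 mutants in 24 of 34 genes. The median shift of the members from the mean of the 6 controls was 0.18, 0.35 and 0.76 in the mutants at 9 weeks, against -0.05, 0.16 and 0.15 in the controls of that age. It was 1.30, 1.11 and 0.95 in mutants at 13 weeks, against -0.18, 0.13 and -0.21 in controls. Without mutant 3 the members' median difference at 9 weeks was 0.14 in place of 0.25, with 24 of 34 above 0 in place of 28, and 1 member was called. The same mouse was the highest of the 3 mutants in the summed signals of microglial markers (10842.5, against 6958.5 and 8182.2 in its group mates), astrocyte markers (21382.3, against 17794 and 19167) and oligodendrocyte precursor markers (5164.4, against 3544 and 3894.4). It was the lowest in projection neuron markers (26864.2, against 33086.4 and 35093.2). It was also the highest in neuroblast and neural progenitor markers, with 447.5 to 923.2 over the mutants at 9 weeks, against 353.7 to 431.8 in controls, while 0 of these 5 tested markers was called at that age (2 at an unadjusted p under 0.05). At 13 weeks 1 of the 5 was called, with sums of 437.3 to 490.7 in mutants, against 391 to 437.3 in controls. The part of these cell types in the members' signals of that mouse was not tested. Without control 3 the members' median difference at 13 weeks was 0.96 in place of 1.22, with 29 of 34 above 0, and 25 members were called, 24 of them also called with all arrays; Mcm4 was lost and Mcm5 gained.

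**Figure D5:**
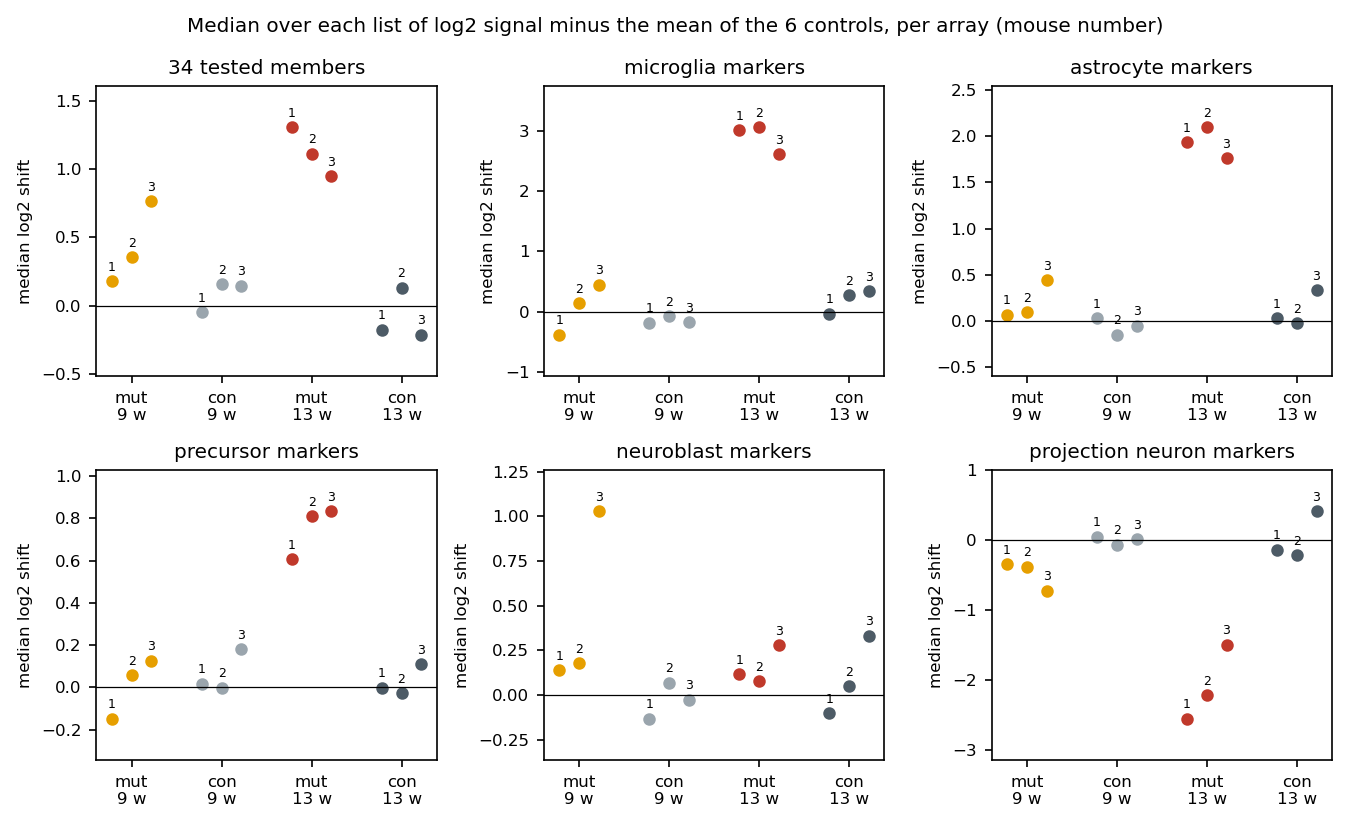
Median, on each array, of log2 signal minus the mean of the 6 controls over the 34 tested members and over 5 lists of cell type markers, with mutants left of controls at each age and the mouse number above each point. The members' median is highest in the mutants of 13 weeks, where microglial and astrocyte markers are also highest, and mutant 3 at 9 weeks is the highest of its group for the members and for the microglial, astrocyte, precursor and neuroblast markers and the lowest for the projection neuron markers.

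Where a tested member had a further probe set over the filter, its direction could be checked. This held for 18 of the 34, and for all 14 of those called at 13 weeks every such probe set differed the same way at that age. That is a check of sign only. No further Mcm7 probe set passed, nor did every further one of Ccnd2 and Smc4. At 9 weeks the Dut probe sets disagreed, with 0.20 for the chosen one and -0.89 for the other, which was called lower (adjusted p = 0.0219). Probe sets over the filter also differed in sign at that age for Ccnd1, Ccnd2, Cdk4, Cdkn1b and Mcm4, none of them called.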

How the data were processed

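Striatal RNA was hybridised and, per the labels, the authors processed the arrays with GCRMA, whose version is not given in the sources used here; the deposited values are log2 signals, with array medians of 5.29 to 5.52. They were used as deposited. At 13 weeks the medians were 5.52, 5.52 and 5.44 in mutants, against 5.35, 5.31 and 5.33 in controls. With arrays centred on their medians, the members Mcm4, Rrm1 and Mad2l1 were no longer called at 13 weeks. Of 22690 probe sets, 20380 had 1 symbol and 12393 genes resulted. Genes over the array's 40th percentile (3.51 to 3.81) in at least 3 arrays were fitted in R 4.3.3 with limma 3.58.1 (lmFit, eBayes; 4 group coefficients, 8 residual degrees of freedom), after a test on simulated data. P-values were two-sided and Benjamini-Hochberg adjusted over all 8256 genes. Promoters were searched with Python 3.11.15.

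The members and lists were chosen with earlier results of these data known. Every array's value is given for members called at 9 weeks or in the change between ages, the 12 largest rises and up to 6 largest falls called at 13 weeks (2 fell), Mki67, Top2a, Pcna, the D cyclins, Cdk4, Cdk6, Rb1, Cdkn1b and Cdkn2c. Of other lists, up to 4 genes with the smallest p at 13 weeks, plus Cdkn1a, are named, some by their differences only. The series text speaks of 3 mice per group and also of more arrays than the 12 analysed here. Alternatives covered scaling, filter, probe sets, the prior, array weights, sex, a block for the replicate number, and leaving out each array in turn. Leaving out both arrays that stood apart was chosen after seeing the data.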

Additional observations from a re-analysis of the deposited data

Results flagged for a closer look

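The difference between mutants and controls changed from 9 to 13 weeks, by the test of that change itself, for 9 members and 6 other named cell cycle genes, all toward a higher value in mutants at 13 weeks (values in log2). The 9 were of 34 tested members. The 6 were of 48 tested genes, near the 12.1% of all tested genes called with a positive change. Without genes that passed the filter only through the mutants of 13 weeks, the counts were 8 of 32 and 2 of 44. Among G1 genes the change was 3.59 for Ccnd1, 1.67 for Ccnd3, 1.07 for Rb1 and 1.36 for Cdkn2c, and 3.69 for Cdkn1a, 2.34 for Rbl1 and 1.63 for Ccng1. Among replication genes it was 2.53 for Mcm3, 1.49 for Mcm6, 2.69 for Cdt1 and 1.76 for Dbf4. Among mitotic genes it was 2.66 for Cdk1, 1.99 for Birc5, 1.96 for Top2a and 1.29 for Cdca3. Of these, Cdt1, Dbf4, Rbl1, Cdca3 and Birc5 passed the filter only through the mutants of 13 weeks, so their values are set against groups at the low end of the signal scale.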

How the results depend on the processing

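At 13 weeks 21 of the 25 member calls held in all 12 fits that each left out 1 array, and the others were Mcm4, Rrm1, Dut and Ccna2. At 9 weeks 0 of 3 calls did, and the count ranged from 0 to 4; for age in mutants it ranged from 7 to 13. The 9-week count was 1 with no filter. A 60th percentile filter, which tests fewer genes, gave 5 calls for the change between ages and 7 for age in mutants. Female mice only left 1 mouse in 3 groups, with control 3, which stood apart, as the 13-week control. This turned Mcm5 at 13 weeks to -0.71 and Ccng2 to 0.14, and the cause was not tested. Array weights, whose estimation stopped before converging, gave 16 calls at 9 weeks, 20 for the change between ages, 28 for age in mutants and 3 for age in controls. Without both arrays that stood apart, the change between ages had 16 calls and age in mutants 20. For fits that left out arrays or added weights, a term or a block, here and above, the share of all genes called is not given. Same-numbered mice did not deviate together at 9 weeks (Pearson's r from -0.07 to 0.07; 0.09 to 0.18 at 13 weeks); with the replicate number as a block the counts were 2 at 9 weeks, 26 at 13 weeks, 8 for the change, 10 for age in mutants and 0 for age in controls.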
